A study of Rattus norvegicus with 4 samples.

Results

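The transcripts described here encode the enzymes that burn fatty acids in mitochondria and the citrate cycle enzymes that take up the product. The list held 36 genes, 24 for fatty acid entry, beta-oxidation and their control and 12 for the citrate cycle, chosen by gene symbol. Of the 36, 35 were matched to a probe set that carries a single gene symbol, and each gene is represented by its brightest probe set. They are 35 of the 14218 genes so matched and of the 10092 that could be compared. Fh, fumarase, was matched to no such probe set and is not analysed here. Of the 35 genes, 34 lay above the floor (a signal of 30.1, under which signals have no order) on all 4 arrays, and Acacb lay above it on the exercise array only.

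Fatty acids enter mitochondria as carnitine esters, after activation to acyl-CoA. Inside, beta-oxidation shortens them by repeated rounds of dehydrogenation, hydration, a second dehydrogenation and thiolysis. The acetyl-CoA released is oxidised in the citrate cycle, and the electrons pass to the respiratory chain. In skeletal muscle these enzymes are most abundant in oxidative fibres and are known to increase with endurance training.

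The RNA came from skeletal muscle of F344/DuCrlCrlj rats in a model of intermittent claudication, which is leg pain on walking caused by poor blood flow. There were 4 groups with 1 array each: sham, ischemia, ischemia + ES (electrical stimulation that makes the muscle contract through its nerve, called ES below) and ischemia + exercise (called exercise below). The muscle, the age and number of the animals behind an array, any pooling, and the timing of both treatments are not stated in the labels. The study asked which expression differences ES and exercise make against untreated ischemia.

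With 1 array per group there are no replicates, so no difference below has an error or a p-value, and each compares 2 arrays. Signals are probe set intensities in arbitrary units, and they are given in the order sham, ischemia, ES, exercise. Probe sets differ in brightness for reasons of design, so signals of different genes are not compared. In a comparison the ratio is log2 of the first-named array over the second-named, so ischemia against sham is below 0 where ischemia is lower, and a log2 ratio of 1 is 2-fold. As a gauge of measurement scatter, the log2 ratios of the brightest and the next probe set were compared in 1844 genes with at least 2 probe sets above the floor on all arrays. The robust SD of that difference ran from 0.29 (exercise against sham and ischemia against sham) to 0.36 (ES against ischemia), and is called the probe set spread below. It holds no variation between animals.

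The arrays had been brought to the same trimmed mean of 150.1. Muscle fibre markers were bright on all arrays, with summed signals of 7 markers between 70338 and 74153. The sum hides single markers that moved apart. In ES against ischemia 5 were higher, up to 1.43-fold (Myh2), and 2 lower, Pvalb by 1.77-fold and Myh4 by 1.27-fold. Of the 4 cardiac markers with a probe set, Nppa, Tnni3 and Myl7 lay under the floor throughout. Myh6 lay above the floor in sham (56.9) and with exercise (35.9), and under it in ischemia and with ES. Of the adipocyte markers, Lep and Ucp1 were under the floor throughout. The actin 3' over 5' signal ratio, a measure of RNA integrity, was 4.38 in sham, 3.81 in ischemia, 5.94 with ES and 4.34 with exercise. The Gapdh 3' over 5' ratio was 1.16, 1.04, 1.26 and 1.16. Both ratios were thus lowest in ischemia and highest with ES, as most of the enzyme signals below were, and their part in any of the comparisons was not tested. The sham array was a reference for 3 of the 6 comparisons and the ischemia array entered 3, so the comparisons are not independent of each other.

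Across the 35 genes, the ischemia array held the lowest signal of the 4 in 27 genes and the ES array the highest in 31. Among all genes compared, 24.3% were lowest on the ischemia array and 39.7% highest on the ES array. Both held together in 24 of the 35, and in 12.5% of all genes. The genes outside this pattern on the low side were Ucp3 and Idh3a, lowest in sham (23.2% of all genes), and Crat, Ucp2, Sucla2, Suclg1 and Mdh2, lowest with exercise (18.9%). Acacb had no single lowest array. Highest on an array other than ES were Echs1 and Etfa (sham, 17.4% of all genes) and Acsl1 and Acacb (exercise, 20.5%). No member was highest in ischemia (22.4%) or lowest with ES (24.9%).

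**Figure D1:**
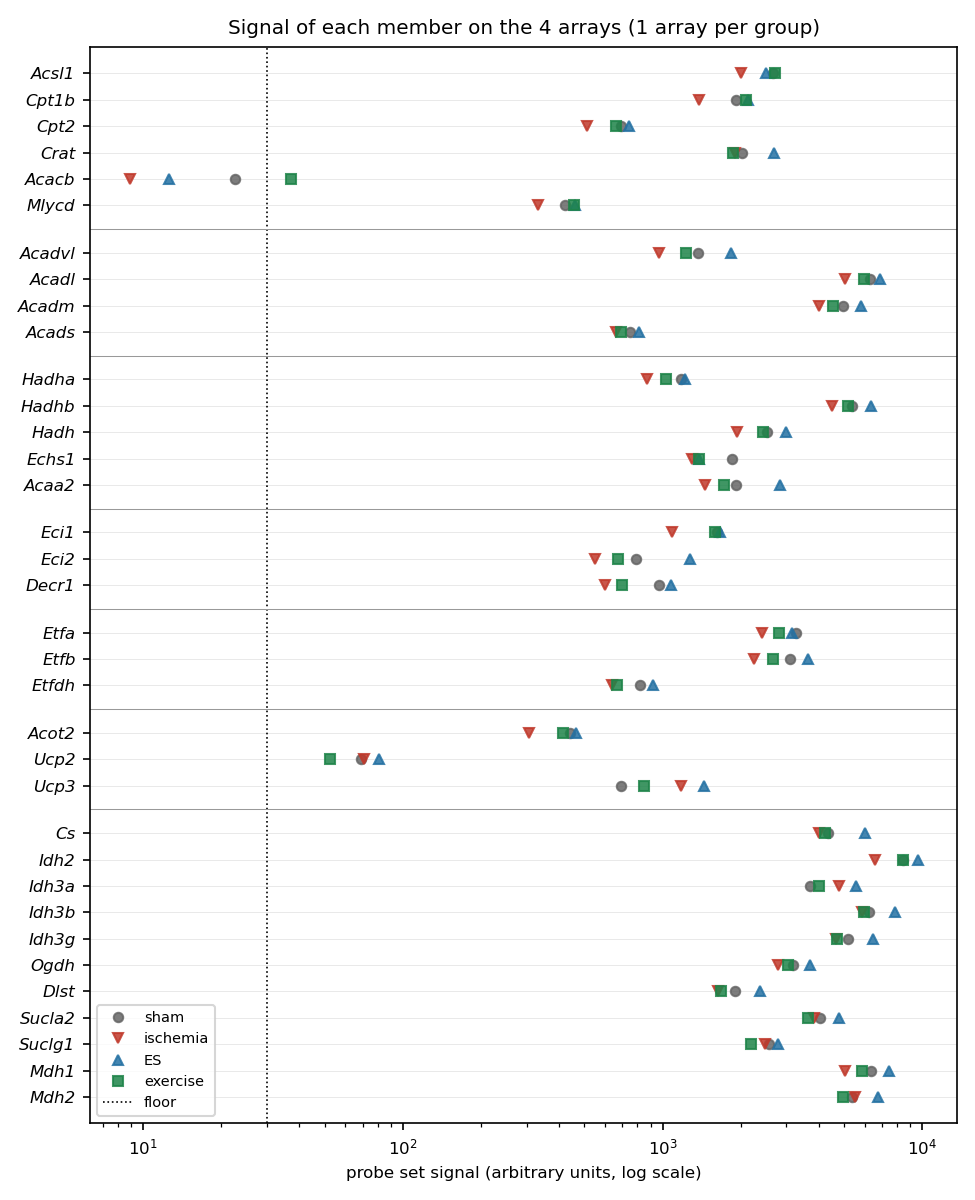
Probe set signal (arbitrary units, log scale) of each of the 35 genes on the 4 arrays, with 1 point per array and the floor as a dotted line. Leaving out Acacb, above the floor on 1 array only, the ischemia point lies leftmost in 27 genes and the ES point rightmost in 31. Ucp3 and Idh3a have sham leftmost.

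Ischemia against sham asked what blood flow restriction alone did. The fatty acid genes were lower in ischemia by a median log2 ratio of -0.40 (24 genes, 21 below 0), and the citrate cycle genes by -0.11 (11 genes, 9 below 0). The median of all 10092 genes was 0.00, with 45.6% below 0, and the median of 3487 genes with a mean signal over 300 was -0.01. No member passed 2-fold, where 1.64% of all genes did. Decr1 was 1.60-fold lower and Ucp3 1.70-fold higher, the only members past 1.5-fold, where 3.19% of all genes were 1.5-fold lower and 4.94% higher. Beyond the probe set spread, 20 of the 35 were lower and 2 higher, where 11.5% and 16.4% of all genes were. Of these 20, 18 were fatty acid genes and 2 citrate cycle genes (Idh2 and Mdh1).

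Markers of other cells moved in the same comparison. All 10 slow-fibre markers were more than 2-fold lower in ischemia, and their summed signal was 66333 in sham, 11603 in ischemia, 23214 with ES and 76603 with exercise. Of the macrophage markers, 6 of 10 were more than 2-fold higher in ischemia, with summed signals of 1657, 3933, 4680.1 and 1720.2 on the 4 arrays. Of the fibroblast and matrix markers, 5 of 8 were more than 2-fold higher, with summed signals of 12031, 24217, 19827 and 11960.0. Both Schwann cell markers compared, Pmp22 and Mbp, were lowest in ischemia and highest with ES, with summed signals of 1208.1, 914.3, 1271.2 and 1090.6. Both erythroid markers compared were lower in ischemia than in sham, with summed signals of 10573, 7137.8, 6878.7 and 7141.7. In a whole piece of muscle, fewer cells of a type and less RNA per cell cannot be told apart, and the part of these markers in the lower enzyme signals was not tested. On the ES array 9 of the 10 slow-fibre markers were below sham, and 31 of the 35 enzyme genes were above sham. Of the 7 muscle fibre markers, 5 were above sham there, among them Myh2 at a log2 ratio of 0.21. The other 2, Pvalb and Myh4, were at -0.51 and -0.31. In ischemia against sham 5 of the 7 were below 0 (Myh2 at -0.31), with Pvalb at 0.31 and Myh4 at 0.04. The part of fibre type in the enzyme signals was not tested. Of 12 respiratory chain and other mitochondrial markers, 11 were lower in ischemia, with a median log2 ratio of -0.08.

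ES against ischemia gave the widest difference for these genes. In 34 of the 35 the ratio was above 0 (56% of all genes), and Acacb was under the floor on both arrays. The median was 0.51 for the fatty acid genes and 0.42 for the citrate cycle genes, against 0.05 for all genes and 0.00 for the genes over 300. Past 1.5-fold and higher were 10 members, where 9.8% of all genes were: Cpt1b, Acadvl, Hadh, Eci1, Eci2, Decr1, Etfb, Acaa2, Acot2 and Cs. Eci2 was 2.31-fold higher and alone passed 2-fold, which 3.07% of all genes did. Beyond the probe set spread, 25 members were higher and 0 lower, where 20.7% and 11.8% of all genes were. Endothelial markers were higher in the same comparison, 5 of 6 by more than 2-fold, with summed signals of 1588.9 in sham, 1618.3 in ischemia, 3538 with ES and 1714.1 with exercise. All 10 slow-fibre markers were also higher with ES than in ischemia, 9 past 1.5-fold and 4 past 2-fold, at a median log2 ratio of 0.94. All 12 mitochondrial markers were higher, at a median of 0.28. The summed adipocyte signals were 2255, 2528, 4514 and 2821, and the higher ES sum lay in Fabp4, at 2154 in ischemia and 4215 with ES. Adipoq and Cfd had log2 ratios of -0.34 and -0.39 in the same comparison. The part of these markers in the higher enzyme signals was not tested.

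Exercise against ischemia gave smaller ratios. The fatty acid genes had a median of 0.24, with 21 of 24 above 0, while the citrate cycle median was 0.03, and -0.10 under quantile normalization, so it has no settled direction. Acacb, above the floor with exercise only, was among the 21 and could not have come out below 0. Over all genes the median was 0.00 and 47.7% were above 0. Cpt1b was 1.51-fold higher and alone passed 1.5-fold, where 4.02% of all genes were 1.5-fold higher and 4.24% lower, and no member passed 2-fold, where 2.01% of all genes did. Beyond the probe set spread, 9 members were higher and 2 lower (Ucp2 and Ucp3), where 13.7% and 13.8% of all genes were. All 10 slow-fibre markers were more than 2-fold higher with exercise than in ischemia, while 5 of 10 macrophage and 5 of 8 fibroblast and matrix markers were more than 2-fold lower. All 5 adipocyte markers compared were above 0, but Plin1 and Cidec were above the floor with exercise only and could not have come out below 0. Cfd and Fabp4 had log2 ratios of 0.33 and 0.04. Adipoq, the adipocyte hormone adiponectin, was at 42.7, 40.3, 31.8 and 123.6 on the 4 arrays. Plin1, a lipid droplet protein, was at 46.1 with exercise. The part of these markers in the exercise ratios was not tested.

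**Figure D2:**
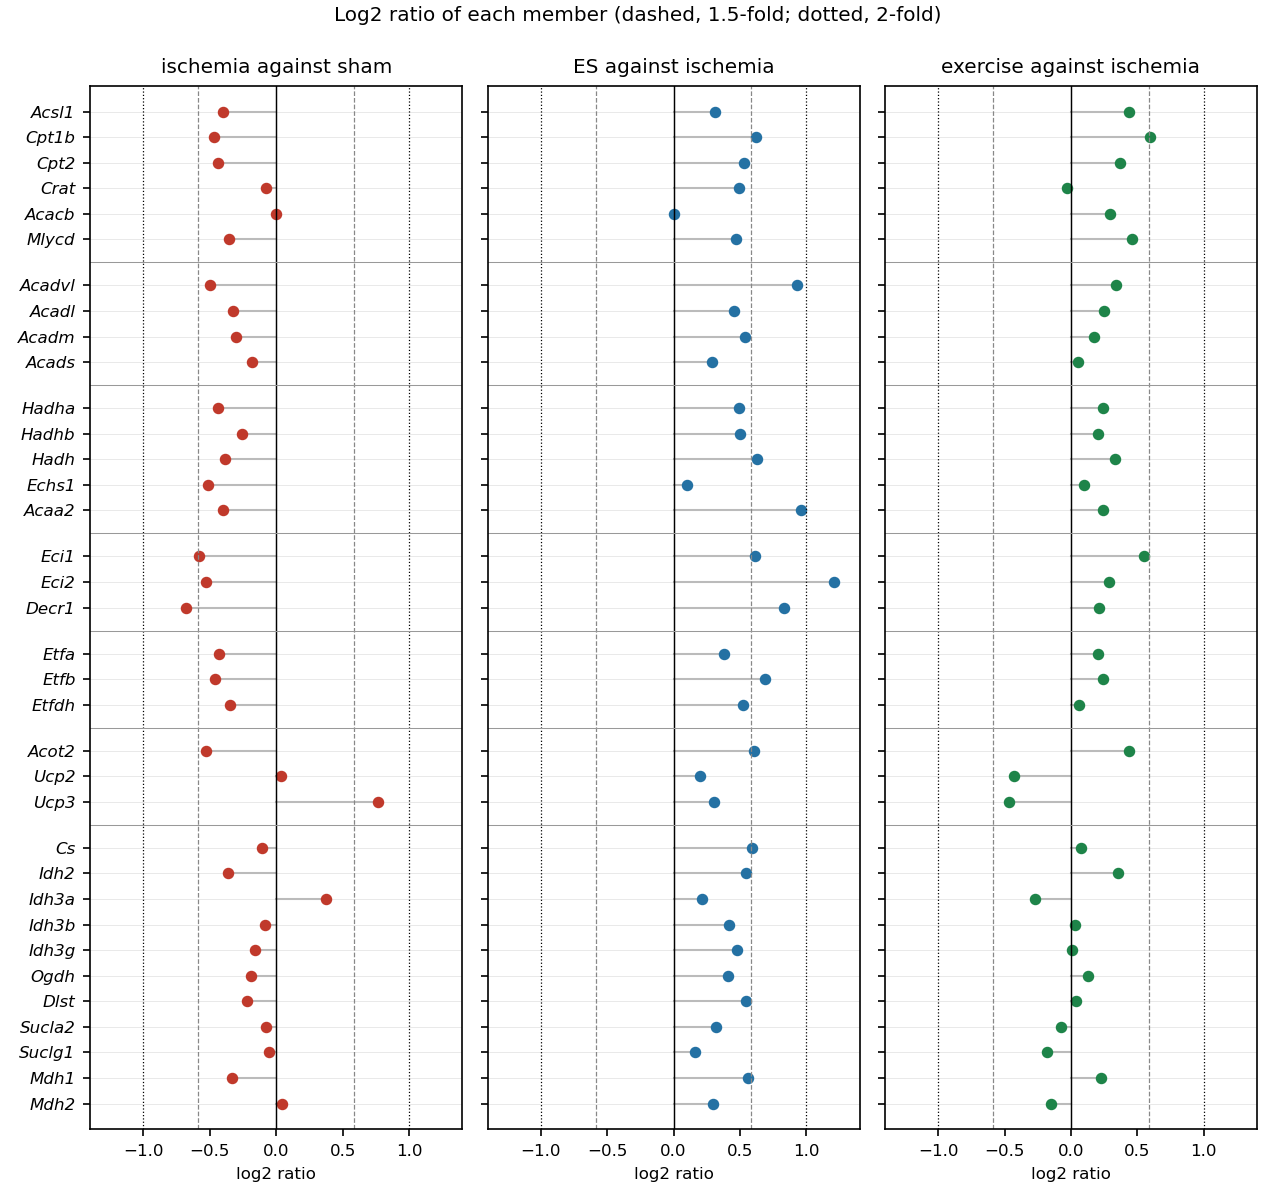
Log2 ratio of each of the 35 genes in 3 comparisons, with dashed lines at 1.5-fold and dotted lines at 2-fold. In ischemia against sham 30 points lie left of 0, in ES against ischemia 34 lie right of 0, and Ucp3 stands apart on the right of the first panel at 0.77.

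The 2 treated arrays were also set against sham and against each other. With ES, 31 of 35 genes were above sham (56.9% of all genes), at medians of 0.15 for the fatty acid genes and 0.32 for the citrate cycle genes, where all genes had 0.05. All 11 citrate cycle genes were above sham on the ES array, by log2 ratios from 0.11 (Suclg1) to 0.59 (Idh3a). Ucp3 was 2.10-fold, Eci2 1.61-fold higher with ES than in sham, and Idh3a was higher by a log2 ratio of 0.59. These were the 3 members past 1.5-fold, where 12.4% of all genes were 1.5-fold higher and 4.36% lower, and Ucp3 alone passed 2-fold, where 4.84% did. With exercise, 29 of 35 genes were below sham (44.4% of all genes), at medians of -0.11 for either group, and none passed 1.5-fold in either direction, where 2.93% of all genes were higher and 1.7% lower and 0.446% passed 2-fold. Beyond the probe set spread, exercise differed from sham in 6 members, 4 lower (Echs1, Decr1, Etfdh and Ucp2) and 2 higher (Ucp3 and Acacb), where 8.9% and 13.3% of all genes were. Acacb was above the floor with exercise only, so it could not have come out lower there. The spread was taken from probe sets above the floor on all arrays and does not cover Acacb. ES stood above exercise in 33 of 35 genes (54.5% of all genes), with medians of 0.27 for the fatty acid genes and 0.40 for the citrate cycle genes. Past 1.5-fold were Eci2 (1.90-fold), Ucp3 (1.71-fold), Acaa2 (1.64-fold), Ucp2 (1.55-fold) and Decr1 (1.54-fold), where 10.5% of all genes were 1.5-fold higher and 4.6% lower, and no member passed 2-fold, where 4.05% did. Beyond the probe set spread, 19 members were higher with ES than with exercise and 0 lower, where 24.1% and 14.7% of all genes were. Against sham, ES was higher beyond that spread in 7 members and lower in 1 (Echs1), where 23.9% and 12.4% were.

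**Figure D3:**
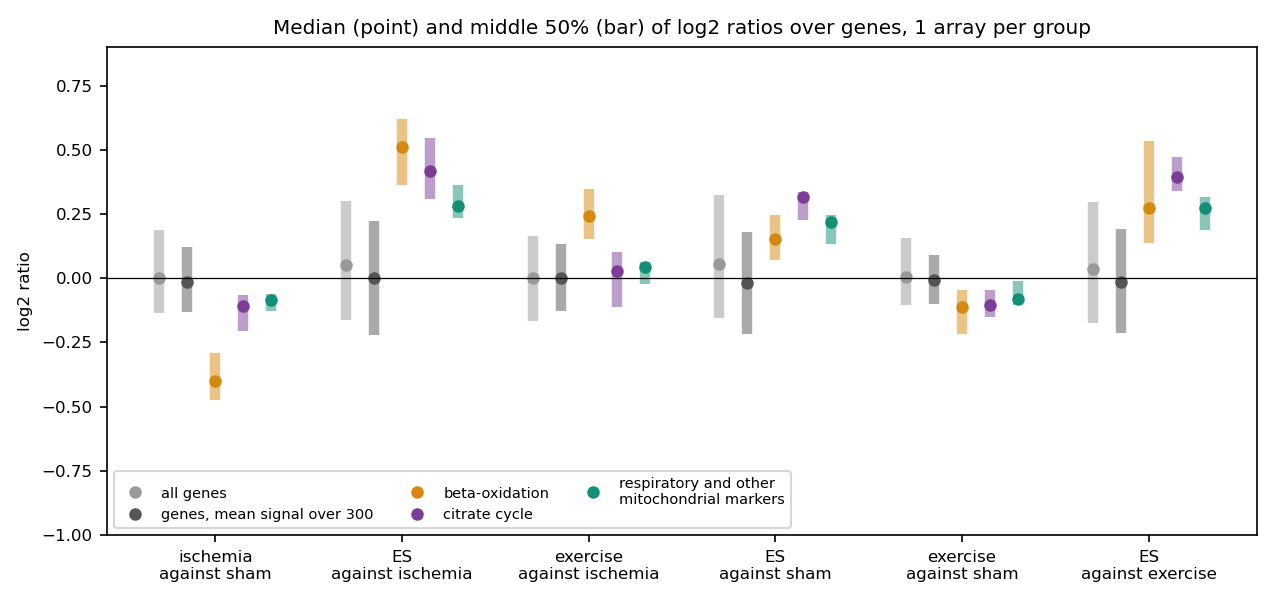
Median (point) and middle 50% of genes (bar) of the log2 ratios in the 6 comparisons, for all 10092 genes, 3487 genes with a mean signal over 300, 24 fatty acid genes (labelled beta-oxidation), 11 citrate cycle genes and 12 mitochondrial markers. The fatty acid median lies at -0.40 in ischemia against sham and 0.51 in ES against ischemia, and the citrate cycle median at -0.11 and 0.42.

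The carnitine shuttle and its control came first by role. Acsl1, the long-chain acyl-CoA synthetase that activates fatty acids, had signals of 2662, 2013, 2493 and 2718 in sham, ischemia, ES and exercise. Cpt1b, the muscle carnitine palmitoyltransferase of the outer membrane and the rate-controlling step of entry, had signals of 1912, 1385, 2128 and 2095. Cpt2, which remakes acyl-CoA inside, had signals of 694, 513, 739.8 and 662. In all of these the ischemia array was the lowest. Exercise and ES were about as far above ischemia as each other for Cpt1b (log2 ratios of 0.60 and 0.62), and for Acsl1 exercise was the higher (0.43 against 0.31). The other Acsl1 probe set above the floor gave 0.44 and 0.28.

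Mlycd, malonyl-CoA decarboxylase, removes the inhibitor of Cpt1b, and Acacb, acetyl-CoA carboxylase 2, makes it. Mlycd had signals of 423, 331, 459 and 455, lowest in ischemia and alike on both treated arrays. Acacb read 22.5, 8.87, 12.6 and 37.0, and only the last lies above the floor, so exercise was at least 1.23-fold higher than each other array and nothing else can be ordered. Crat, carnitine acetyltransferase, which buffers acetyl-CoA, had signals of 2017, 1908, 2686 and 1874. Crat was thus high on the ES array only, with sham, ischemia and exercise within a log2 range of 0.11. For the 6 genes of this role the median of ES against exercise was 0.02, against 0.30 for the acyl-CoA dehydrogenases, a difference that was not tested.

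The acyl-CoA dehydrogenases carry out the opening step on chains of decreasing length. Acadvl, for very long chains, had signals of 1364, 968, 1838 and 1226, with a ratio of ES to ischemia of 1.90-fold. Acadl, for long chains, had signals of 6319, 5034, 6883 and 5976. Acadm, for medium chains, had 4953, 4012, 5823.5 and 4514. All 4 genes of the family had the same order of arrays, ES highest, then sham, exercise and ischemia. Acads, for short chains, had signals of 750.0, 663, 809 and 689, and the narrowest range of the 4, with log2 ratios of -0.18 for ischemia against sham and 0.29 for ES against ischemia. The electrons go to the electron transfer flavoprotein, whose subunits are Etfa and Etfb, and on to Etfdh, its ubiquinone oxidoreductase. Etfb had signals of 3091, 2249, 3628 and 2658, and Etfdh 816, 641, 921 and 667. Etfa had 3262, 2426, 3163 and 2798, so ES stood 0.38 above ischemia in log2 ratio and at -0.04 against sham (0.00 under cyclic loess normalization, and then above 0). Etfdh was close to ischemia with exercise, at 0.06, and 0.52 above it with ES.

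Hadha and Hadhb encode the alpha and beta subunits of the trifunctional protein, which carries out the later steps on long chains. Their promoter windows lie on opposite strands of rat chromosome 6 and overlap by 200 bases, so they are shown here together, with Eci2, which had the widest ES ratio, and Ucp3, which went the other way in ischemia. The sequences are from RefSeq (build GRCr8), 250 bases before to 50 after the gene start, and capitals mark letters that match any of 4 searched motifs on either strand.
Hadha (chr6:31907551-31907850, plus strand): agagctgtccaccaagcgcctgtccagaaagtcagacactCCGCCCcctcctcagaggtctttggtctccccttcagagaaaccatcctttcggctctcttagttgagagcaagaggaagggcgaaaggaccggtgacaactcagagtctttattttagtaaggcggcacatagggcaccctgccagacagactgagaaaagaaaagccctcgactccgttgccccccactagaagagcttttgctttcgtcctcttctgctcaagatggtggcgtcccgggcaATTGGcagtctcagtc
Hadhb (chr6:31907451-31907750, minus strand): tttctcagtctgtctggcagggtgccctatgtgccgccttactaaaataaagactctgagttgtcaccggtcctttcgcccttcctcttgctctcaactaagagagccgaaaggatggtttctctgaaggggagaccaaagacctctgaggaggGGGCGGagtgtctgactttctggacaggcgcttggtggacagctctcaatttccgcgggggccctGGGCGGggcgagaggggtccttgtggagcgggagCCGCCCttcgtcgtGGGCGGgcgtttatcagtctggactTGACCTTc
Eci2 (chr17:30075516-30075815, plus strand): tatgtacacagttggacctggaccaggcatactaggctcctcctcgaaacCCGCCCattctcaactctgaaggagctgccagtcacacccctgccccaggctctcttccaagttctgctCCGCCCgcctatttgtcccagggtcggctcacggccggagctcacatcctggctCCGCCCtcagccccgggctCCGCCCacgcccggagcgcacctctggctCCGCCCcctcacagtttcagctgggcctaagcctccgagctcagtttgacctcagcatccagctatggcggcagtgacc
Ucp3 (chr1:164227660-164227959, plus strand): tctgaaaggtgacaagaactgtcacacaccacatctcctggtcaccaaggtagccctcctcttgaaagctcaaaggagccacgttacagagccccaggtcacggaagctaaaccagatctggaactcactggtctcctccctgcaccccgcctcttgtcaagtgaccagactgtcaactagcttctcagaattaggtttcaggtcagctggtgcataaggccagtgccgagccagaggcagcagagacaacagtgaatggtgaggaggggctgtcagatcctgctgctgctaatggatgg

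The motifs were the DR1 element (AGGTCA repeated with a single free base between the repeats), which peroxisome proliferator-activated receptors bind with retinoid X receptors, AAGGTCA, a nuclear receptor site that can lie inside a DR1 element, CCAAT and GGGCGG. Promoter windows were found for 31 of the 36 genes. The DR1 element was in 0 of them and in 0.0538% of all 33469 windows in the table. AAGGTCA was in 2 (Hadhb and Acacb), 6.45% against 4.61% of all windows. CCAAT was in 16, 51.6% against 37.5%, and GGGCGG in 20, 64.5% against 33.1%. Among the 9403 windows of genes compared on these arrays, the shares were 0.0213% for the DR1 element, 3% for AAGGTCA, 37.3% for CCAAT and 61.6% for GGGCGG, so the share for GGGCGG was near that background. A match describes letters in this window only.

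Signals of Hadha were 1179.5, 872, 1224 and 1029.5, and those of Hadhb were 5363, 4489, 6351 and 5167. Both subunits had the same order of arrays, with log2 ratios for ES against ischemia of 0.49 and 0.50, and for exercise against ischemia of 0.24 and 0.20. Hadh, the hydroxyacyl-CoA dehydrogenase of shorter chains, had signals of 2527, 1939.8, 2994 and 2435. Acaa2, the mitochondrial thiolase, had 1921, 1458.5, 2832 and 1725, with ES 1.94-fold above ischemia. Its dim other probe set gave 37.0, 27.1, 66.7 and 18.3, above the floor in sham and ES only. Echs1, short-chain enoyl-CoA hydratase, had signals of 1849.9, 1293, 1384 and 1382. It was the exception of this role: sham stood above all 3 ischemic arrays, and ES and exercise each had log2 ratios of 0.10 to ischemia and -0.42 to sham.

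Unsaturated fatty acids need isomerases and a reductase besides the main cycle, and these 3 genes had the largest median ratio of the roles in both ischemia against sham (-0.58) and ES against ischemia (0.83). Eci2, an enoyl-CoA isomerase, had signals of 792, 549.98, 1272.5 and 671. Decr1, the dienoyl-CoA reductase, had 966, 602, 1073 and 699. In both genes ES was the highest array and exercise stayed under sham, at log2 ratios of -0.24 and -0.47. Eci1, the other isomerase, had 1625.5, 1089.5, 1669 and 1593.5, with exercise at sham (-0.03) and close to ES. Its brightest probe set carries a suffix that marks possible cross-hybridization, and the other, near the floor (signals of 40.9, 33.2, 38.3 and 40.7), gave smaller ratios of 0.21 for ES and 0.29 for exercise against ischemia.

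Acot2, a mitochondrial thioesterase that frees fatty acids from CoA, had signals of 441.5, 306, 465 and 415. Its other probe sets differed: 1 gave log2 ratios of -0.11 for ES and 0.07 for exercise against ischemia and the other 0.30 and -0.36. Acot2 has near-identical relatives, among them Acot1, which lay under the floor throughout, so which gene each probe set reads is uncertain. Ucp3, the uncoupling protein of skeletal muscle, had signals of 689, 1174, 1450.5 and 849. It was thus higher on every ischemic array than in sham, highest with ES and lowest of the 3 with exercise. Its other probe set had 167, 264, 266 and 195.0, with a log2 ratio of 0.66 for ischemia against sham and 0.01 for ES against ischemia, so the higher ES signal over ischemia was not seen there. Ucp2, a more widely expressed relative, was dim, at 69.0, 70.9, 81.3 and 52.5.

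**Figure D4:**
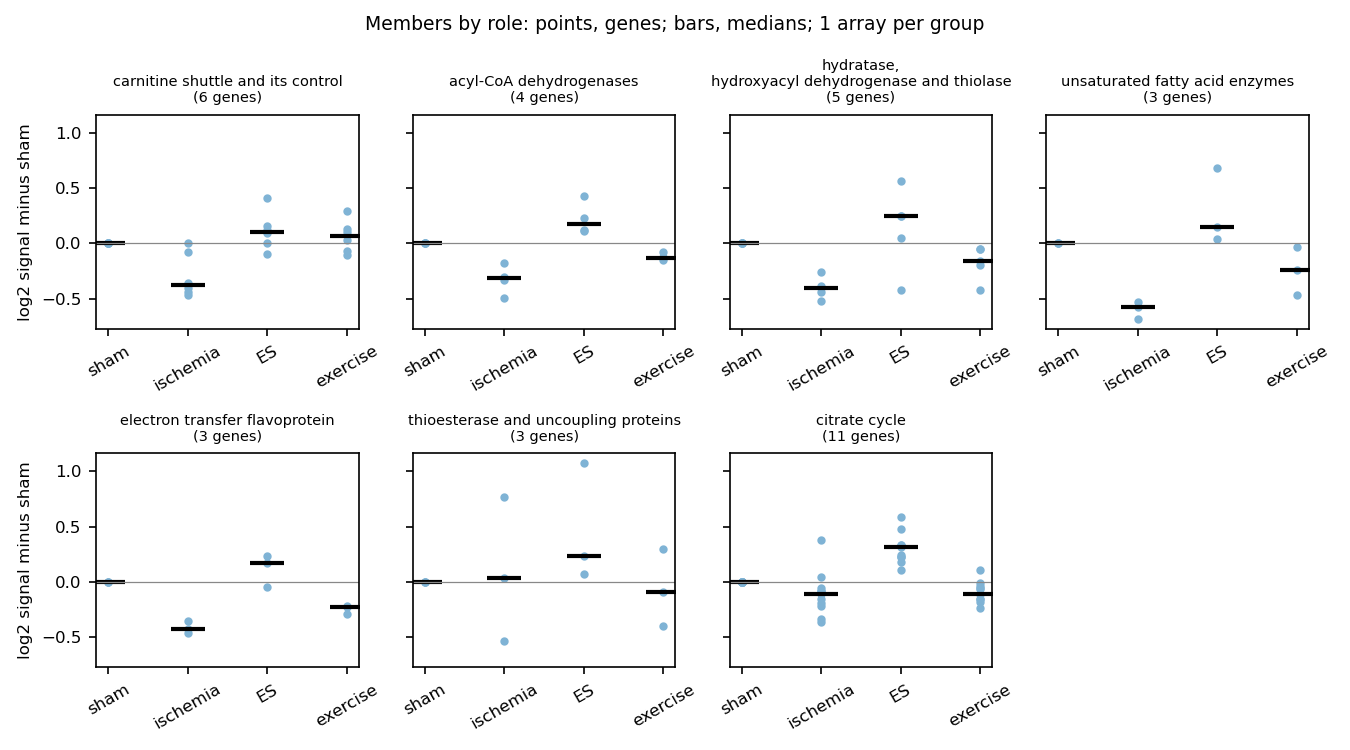
Log2 signal minus that of sham on each array for the genes of each role (points, 1 per gene) and their medians (black bars), with 1 array per group and signals under the floor set to it. The medians of the fatty acid roles dip in ischemia, to -0.58 for the unsaturated fatty acid enzymes, except the uncoupling and thioesterase group at 0.04, and the citrate cycle median is -0.11 in ischemia and 0.32 with ES.

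The citrate cycle genes differed less from sham in ischemia than the fatty acid genes, and all 11 were highest on the ES array (39.7% of all genes). The 12 mitochondrial markers went the same way. Their medians were -0.08 for ischemia against sham, 0.22 for ES against sham (10 above 0) and 0.27 for ES against exercise (11 above 0). Cs, citrate synthase, a common measure of mitochondrial content, had signals of 4324, 4012, 6037 and 4224. ES stood above ischemia by a log2 ratio of 0.59, and sham, ischemia and exercise lay close together. Its other probe sets above the floor on all arrays gave log2 ratios for ES against ischemia of 0.63 and 0.26. Idh2, the mitochondrial NADP isocitrate dehydrogenase, had 8463, 6572, 9594 and 8394, so exercise was 0.35 above ischemia and at sham level (-0.01, and 0.01 under cyclic loess normalization).

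Idh3a, Idh3b and Idh3g encode the subunits of the NAD isocitrate dehydrogenase, a regulated step of the cycle. Idh3a, the catalytic subunit, had signals of 3701, 4799, 5557 and 3986. Idh3b had 6220.3, 5873, 7847 and 5986, and Idh3g 5185, 4652, 6459.7 and 4676. The catalytic subunit was thus 0.37 above sham in ischemia while the other subunits were at -0.08 (0.03 under quantile normalization) and -0.16, and the log2 ratio of exercise to ischemia was -0.27 in Idh3a, with the others at 0.03 and 0.01 (below 0 under quantile and cyclic loess normalization). All 3 subunits were highest with ES. Each of the subunits was read by a single probe set.

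Ogdh and Dlst encode subunits of the oxoglutarate dehydrogenase complex. Ogdh had signals of 3174.5, 2782.5, 3703 and 3048, and Dlst 1897, 1628, 2372.5 and 1674. Sucla2 and Suclg1, subunits of succinyl-CoA synthetase, had 4041, 3829, 4788 and 3640.4, and 2581, 2486, 2785.5 and 2189.8. In the complex of Ogdh and Dlst ischemia was the lowest array, and in Sucla2 and Suclg1 exercise was. Suclg1 had the narrowest ES ratio of the citrate cycle genes, 0.16 against ischemia.

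Malate dehydrogenase has a cytosolic form, Mdh1, and a mitochondrial form, Mdh2, which carries out the last step of the cycle. Mdh1 had signals of 6335, 5036, 7421 and 5885. Mdh2 had 5344, 5503, 6743 and 4958. The log2 ratio of ischemia to sham was -0.33 for the cytosolic form and 0.04 for the mitochondrial form. The other Mdh1 probe set, at 888, 479, 1000.1 and 707, gave wider ratios in the same direction, -0.89 for ischemia against sham, 1.06 for ES and 0.56 for exercise against ischemia.

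Over the 6 members with other probe sets above the floor on all arrays, the sign matched the brightest one in 7 of 8 other probe sets for ischemia against sham, 7 of 8 for ES against ischemia and 5 of 8 for exercise against ischemia. The largest gaps in log2 ratio were 0.70, 0.72 and 0.80. Acot2 gave the exceptions in the comparisons of ischemia with sham and of ES with ischemia.

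Other genes of the same pathways came from a list of 68, of which 60 were compared. In ES against ischemia 9 of 60 were 1.5-fold higher and 3 lower, where 9.8% and 4.72% of all genes were, and the median was 0.17. In ischemia against sham 1 was 1.5-fold higher and 9 lower, where 4.94% and 3.19% of all genes were, with a median of -0.12. In exercise against ischemia 5 were higher and 1 lower, where 4.02% and 4.24% were, with a median of 0.03. Succinate dehydrogenase, which links the cycle to the respiratory chain, has 4 subunits. Sdha had signals of 4307, 3469, 4898 and 3473, and Sdhb had 6098, 5027, 7308 and 5659.8. Sdhc had 4964, 4270.7, 5987 and 4602, and Sdhd 6804, 6415, 7166 and 6423. The log2 ratios of ES to ischemia were 0.50, 0.54, 0.49 and, for Sdhd, 0.16, and that of Sdhd was -0.02 under quantile normalization, so it has no settled direction. Of the 12 other citrate cycle genes compared, 9 were above 0 in ES against ischemia, where 56% of all genes were, and 3 were below 0. Me1, the cytosolic malic enzyme, was among these 3, at 1997, 1971, 1059.9 and 1603.

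Among the 60, Lpl had the widest ratio in ischemia against sham and Fabp3 in ES against ischemia. Lpl, the lipase that frees fatty acids from lipoproteins, had signals of 2986, 1284, 2254 and 2817, a 2.32-fold lower signal in ischemia than in sham. Fabp3, the fatty acid binding protein of muscle, had 5609, 3002, 6316.5 and 5259. Slc25a20, which exchanges acylcarnitine across the inner membrane, had 496, 282, 494 and 388. All were lowest in ischemia, and the median log2 ratio of the 20 other genes of fatty acid oxidation was -0.24 there. Pdk4, the kinase that shuts pyruvate out of the cycle, was lowest in sham, at 2232, 3570.4, 5232 and 4569.9.

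Of 11 transcription factors and coactivators of these genes, 6 were above 0 in ES against ischemia, where 56% of all genes were. Their median was 0.02. That median was the value of Nrf1, which was -0.06 under quantile and cyclic loess normalization. Ppara was under the floor on all arrays and Pparg above it with ES only. Ppargc1a, the coactivator of mitochondrial genes, had signals of 308, 249.97, 334 and 467, highest with exercise. Its relative Ppargc1b went the other way, at 159, 127, 131.5 and 99.1, lowest with exercise. Nrf1, a nuclear activator of respiratory chain genes, was dim, at 47.1, 60.03, 60.7 and 39.1, and its log2 ratio of exercise to ischemia was -0.62. Esrrg, an estrogen-related receptor of oxidative muscle, had 960.4, 492, 470.5 and 912, and was thus low on the ischemia and ES arrays. Ppard had 164, 124.5, 110.7 and 176, and was likewise lowest on the ischemia and ES arrays. Esrra (663, 567, 590.1 and 578) and Tfam (801.5, 837, 956.5 and 784) stayed within a log2 ratio of 0.29 in all comparisons. Esrrb was dim, at 54.6, 42.6, 40.97 and 55.8. Of the retinoid X receptor genes, Rxra had 44.9, 52.2, 31.03 and 35.2 and Rxrg 956, 985, 796 and 1003.6. Both were lowest with ES, but the log2 ratio of Rxrg for ES against ischemia turned from -0.31 to 0.19 with the mean of its probe sets.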

How the data were processed

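RNA from skeletal muscle of 4 samples was measured on 4 single-colour arrays, 1 per group, with groups taken from the labels. The authors deposited a linear intensity for every probe set. The submitters' processing notes list MAS5, with no version. Here each array was rescaled to a common trimmed mean (2% cut at each end), which hides any difference in total mRNA. Signals below the 50th percentile of all values were set to that floor before log2 was taken. Symbols came from the 2016 platform annotation: 20832 of 31099 probe sets carried a single symbol, 436 several and 9831 none. All 35 measured members had the same symbol in RefSeq by gene ID. A gene was compared where any array exceeded the floor. No test was run, and the number of arrays limits the precision. Python 3.11.15 was used, with limma 3.58.1 for alternative normalizations (quantile, cyclic loess). Other alternatives were floors at the 30th and 70th percentile, a 1.5-fold threshold, averaging a gene's probe sets, and dropping those with a cross-hybridization suffix. Calculations were tested on simulated data.

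The members and lists were chosen with earlier results of these data known. By the rule for named genes all members are named, with up to 6 other pathway genes past 1.5-fold per comparison and the transcription factors. Pdpr, Cd36, Pdk1, Pdk3, Pdhx, Pdp2, Acaca, Acadsb and Acad11 are not described above, although they met this rule. The Sdh genes, Acsl3, Acsl4, Acsl6, Acat1 and Oxct1 fall outside it and were chosen after their values were seen. So were the class of genes with a mean signal over 300, the probe set spread and the order of arrays.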

Additional observations from a re-analysis of the deposited data

Results flagged for a closer look

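In 7 genes the log2 ratio to ischemia had opposite signs on the ES and the exercise array. Over all genes, 56% were above 0 with ES and 47.7% with exercise. The share of all genes with opposite signs was not counted, so the 7 are not read as a trait of the members. With 1 array per treatment and a shared ischemia array, the differences were not tested. Crat was at 0.49 with ES and -0.03 with exercise, Ucp2 at 0.20 and -0.43, and Ucp3 at 0.31 and -0.47. Idh3a was at 0.21 and -0.27, Sucla2 at 0.32 and -0.07, Suclg1 at 0.16 and -0.18, and Mdh2 at 0.29 and -0.15. For Ucp3 the other probe set gave 0.01 and -0.44, and Ucp2 was dim. Of the exercise ratios, those of Ucp2 and Ucp3 exceeded the probe set spread, and of the ES ratios that of Crat did.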

How the results depend on the processing

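No paired analysis was possible because each group had 1 array. Of 1248 member ratios recomputed under 6 alternatives, 17 changed sign, all of them with reported log2 ratios between -0.08 and 0.07. The median over the members moved by less than 0.1 in all 6 comparisons under each alternative. The number of members past 2-fold was 0 for ischemia against sham, 1 for ES against ischemia, 0 for exercise against ischemia, 1 for ES against sham, 0 for exercise against sham and 0 for ES against exercise. With a 1.5-fold threshold these became 2, 10, 1, 3, 0 and 5. With the floor at the 30th percentile 1 member passed in ischemia against sham, 1 in exercise against ischemia and 1 in ES against exercise, in each case Acacb, whose signals lie under the main floor on 3 arrays and above it with exercise. With the mean of all probe sets 2 passed in ES against ischemia and 0 in ES against sham. The number of members highest on the ES array ran from 30 to 32 and the number lowest on the ischemia array from 24 to 28. Signals near the floor (Acacb and Ucp2) limit what can be said of those genes.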

Other observations

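Other isoforms of the entry enzymes on the pathway list differed among themselves. Cpt1a, the liver form of carnitine palmitoyltransferase, had dim signals of 55.8 in sham, 71.1 in ischemia, 138 with ES and 90.5 with exercise. Its log2 ratio for ES against sham was 1.31, where Cpt1b had 0.15. With the floor at the 70th percentile, the Cpt1a ratio was 0.44 for ES against sham and 0.00 for ischemia against sham, so its size depends on the floor. Of the other acyl-CoA synthetases, Acsl5 had 83.5, 113, 174 and 102, at 1.06 for ES against sham. Acsl6 had 1018, 1117, 1382 and 974, and Acsl4 295, 321, 361 and 271, at 0.44 and 0.29. Acsl3 had 386, 479, 359 and 361, highest in ischemia, at -0.10 for ES against sham. For ischemia against sham the log2 ratios ran from 0.12 (Acsl4) to 0.44 (Acsl5), where Cpt1b and Acsl1 had -0.46 and -0.40, but that of Acsl5 was -0.07 with the mean of its probe sets.

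Oxct1, the enzyme that lets muscle use ketone bodies, had signals of 3158, 2026, 2182 and 2296 in the same order. It was 1.56-fold lower in ischemia, and neither treated array was back at the sham level, with log2 ratios to sham of -0.53 with ES and -0.46 with exercise. Echs1 and Etfa among the members and Acat1 (3289, 2539, 2294 and 2618) were likewise highest in sham, as were 17.4% of all genes. Other genes of the pathway list were too, among them Lpl, Slc25a20 and Esrrg, so this order is not particular to Oxct1.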
